A study of Homo sapiens with 14 samples.

Results

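The YAP pathway and target genes described here are 10 genes chosen by symbol in both expression tables of the series, and all 10 were found among the 24199 features measured in DU145 cells and among the 44591 genes measured in LNCaP cells. They were grouped as 4 target genes (ANKRD1, CYR61, CTGF and AXL), both transcriptional coactivators (YAP1 and WWTR1, which encodes TAZ) and 4 genes whose products restrain or tune them (LATS2, AMOTL1, AMOTL2 and AJUBA). The choice was made with both contrasts below already known, so the values of these 10 genes, and where they stood in the fit over all features, are given as a description and not as tests of these genes.

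RNA sequencing was carried out in prostate cancer cell lines. DU145 is an androgen-independent line without androgen receptor signaling, and it was infected with lentivirus carrying either a non-target control hairpin (shCON, 3 libraries) or a hairpin against the neural transcription factor PAX6 (shPAX6, 3 libraries). These were stable subclone lines selected with puromycin, and a pair of PAX6 hairpins was made. The labels do not say which hairpin a given shPAX6 library carries, nor whether libraries of a group came from separate cultures. LNCaP is an androgen-sensitive line, and 1 library of parental cells was set beside 1 library of LNCaP-ENZ cells, which were treated with the androgen receptor antagonist enzalutamide for 30 days and kept in 20 µM of it as a resistant line. The groups addressed 2 questions, what PAX6 loss changes in DU145 cells with neuroendocrine-like features and what enzalutamide resistance changes in LNCaP cells. All cells were grown in medium with fetal bovine serum.

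YAP and TAZ are the transcriptional coactivators at the end of the Hippo pathway. When the pathway is active, the kinases LATS1 and LATS2 phosphorylate both proteins, which are then held in the cytoplasm or degraded. When it is inactive, YAP and TAZ enter the nucleus, bind TEAD transcription factors and turn on genes of growth, matrix and adhesion. Cell density, stiffness of the substrate and serum all act on this switch, mostly through the location of the proteins rather than their mRNA. Several targets, among them LATS2 and AMOTL2, feed back as inhibitors.

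TEAD factors recognise the letters GGAATG. The reference promoters of ANKRD1 and CTGF are shown because they hold the most copies of these letters among the members, and that of AXL as a target gene with fewer copies and a lower mean in shPAX6 cells. The 250 bases before the transcription start were read from RefSeq (GRCh38.p14) for ANKRD1 at chr10:90921088-90921337 on the minus strand, for CTGF at chr6:131951373-131951622 on the minus strand and for the second of the 2 annotated starts of AXL at chr19:41226505-41226754 on the plus strand. They run 5′ to 3′ on the strand of the gene, and capitals mark GGAATG or its reverse complement CATTCC.
ANKRD1: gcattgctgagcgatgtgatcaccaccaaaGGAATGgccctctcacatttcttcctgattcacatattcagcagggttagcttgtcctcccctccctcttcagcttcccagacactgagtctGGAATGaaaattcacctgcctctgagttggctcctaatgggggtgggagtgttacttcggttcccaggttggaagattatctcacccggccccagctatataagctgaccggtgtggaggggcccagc
CTGF: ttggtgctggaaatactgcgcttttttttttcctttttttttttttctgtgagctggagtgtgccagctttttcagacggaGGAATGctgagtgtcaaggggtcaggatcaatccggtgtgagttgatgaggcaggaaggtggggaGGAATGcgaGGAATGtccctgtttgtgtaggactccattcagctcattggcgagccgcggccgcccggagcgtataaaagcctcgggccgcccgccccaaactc
AXL: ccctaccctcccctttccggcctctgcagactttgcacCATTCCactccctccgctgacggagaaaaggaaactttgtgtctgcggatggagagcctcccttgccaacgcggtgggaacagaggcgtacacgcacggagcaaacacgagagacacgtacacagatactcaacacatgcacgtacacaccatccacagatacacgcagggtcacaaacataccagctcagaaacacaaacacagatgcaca

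ANKRD1 held 2 copies, 220 and 128 bases before its start, and CTGF held 3 copies, at 169, 104 and 95 bases. AXL held 1 copy on the opposite strand, 212 bases before the second start, and none in the window of its first start. The search covered both strands of each reference window, from 250 bases before to 50 bases after a start, and 9 of the 10 genes had 13 such windows in all. CYR61 had no entry. Beside ANKRD1, CTGF and AXL, 1 copy each was found in YAP1 (162 bases upstream), LATS2 (10 bases downstream), AMOTL2 (69 bases upstream of 1 of 2 starts, opposite strand) and AJUBA (59 bases upstream of 1 of 2 starts). The windows of AMOTL1 and WWTR1 held none, which says only that these letters were not in these windows. Thus 7 of the 9 genes with a window (77.8%) held the letters, compared with 16.7% of the 27305 gene symbols of the same reference, and 22.2% held at least 2 copies compared with 1.7%. At the level of windows, 7 of 13 (53.8%) compared with 14% of 35116. A match of 6 letters is a description of the sequence and not a bound site.

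**Figure D1:**
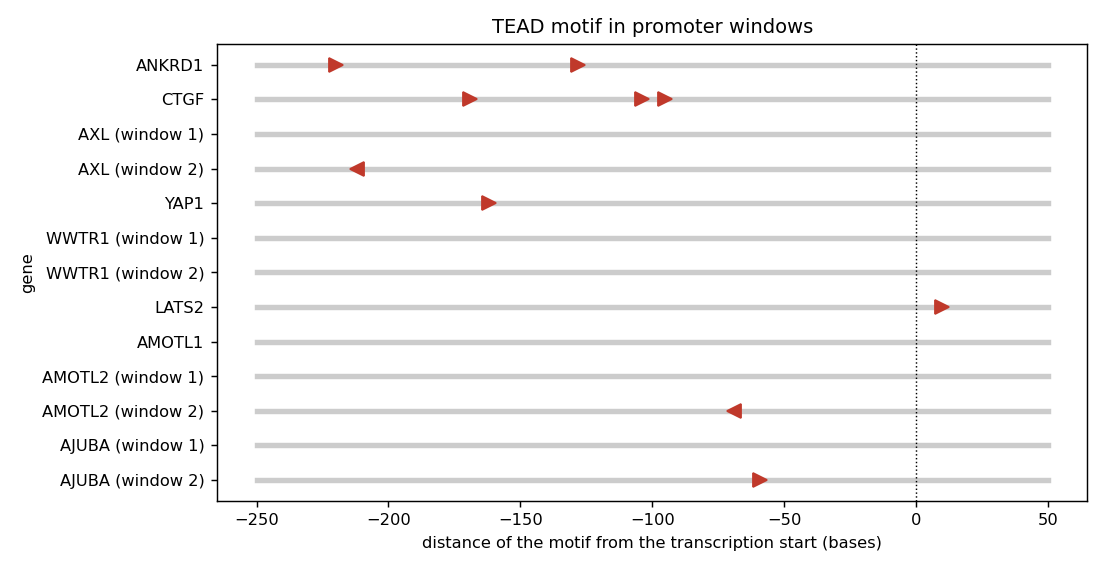
Positions of the letters GGAATG (arrowheads to the right) or CATTCC (to the left) in each reference promoter window of the members, with the distance from the transcription start in bases on the horizontal axis and 1 line per window. ANKRD1 and CTGF are the genes with more than 1 copy, all of them upstream of the start.

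The DU145 values are FPKM, reads scaled to transcript length and to library size, and their sums per library ranged from 448901 to 570790. Read depth is unknown, and with 3 libraries per group p-values measure only the spread between these libraries. The targeted gene, PAX6, had 0.839, 1.23 and 1.57 FPKM in shCON, compared with 0.0153, 0.274 and 0.0778 FPKM in shPAX6. The groups did not overlap, and the log2 fold change was -2.69 ± 0.49 (SE, n = 3 per group). PAX6 reached the filter of a mean of 0.5 FPKM only through the shCON group (mean 1.21 FPKM, compared with 0.12 FPKM in shPAX6). Its difference is therefore not given as a tested one. All features past the filter were tested together (limma, Benjamini-Hochberg over 13574 features). Over all 13574 tested features 163 passed this test at 0.05 (1.2%), 24 on the higher and 139 on the lower side with PAX6 knockdown. The split was 74 higher and 162 lower after quantile normalization, and 28 and 72 after median centring. The median log2 fold change of all features was -0.12 as deposited and 0.06 after median centring. All 4 epithelial markers were tested in DU145, with summed levels of 1525 to 1654 FPKM in shCON and 1135 to 1816 FPKM in shPAX6 libraries, and CDH1 (E-cadherin) was the marker that passed the test, with a log2 fold change of -2.28 and an adjusted p of 0.033. The adjusted p was above the threshold in 7 of 18 alternatives, among them leaving out any 1 of the shCON libraries or shPAX6 library 3 (0.148 to 0.255). The part of CDH1 in the values of the members was not tested. EPCAM stood at -0.75 (limma adjusted p = 0.054) with groups apart. KRT8 was at -0.28 and KRT18 at 0.07, and the groups of both overlapped. Luminal prostate markers were close to absent in DU145 (at most 0.0716 FPKM for 6 genes together, with KLK2, TMPRSS2, HOXB13 and FOLH1 at 0 throughout), and COL1A2, DCN, PTPRC and CD3E were listed at 0 in all 6 libraries. The monocyte marker CD14 was at 0.749 to 0.908 FPKM in shCON and 0.353 to 0.922 FPKM in shPAX6 libraries. The summed fibroblast markers lay at 0.347 to 0.616 FPKM in shCON and 0.359 to 0.773 FPKM in shPAX6, and the endothelial markers at 0.0709 to 0.119 and 0.0474 to 0.0882 FPKM.

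Among the members, the 3 secreted or nuclear targets ANKRD1, CYR61 and CTGF had higher means in shPAX6 than in shCON cells, and the other 7 genes had lower ones (WWTR1 and AJUBA turned to higher ones after rescaling), where 37.1% of all features were above and 62.9% below 0. In the fit over all features ANKRD1 was the only member past the limma threshold. Against this, 1.2% of all features passed, and 0.177% in the higher direction. ANKRD1 and CYR61 were the members whose groups did not overlap, both higher, where 6.7% of all features were apart in that direction and 26.7% in either. Since the genes were chosen with this contrast known, nothing is read from these counts. In bulk RNA, fewer cells of a type and less RNA per cell cannot be told apart.

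ANKRD1 encodes an ankyrin-repeat protein of muscle and nucleus that is widely used as a readout of YAP activity (chromosome 10, bases 92671857 to 92681032; this and the positions below are on GRCh37). Its levels were 26.8, 24.0 and 24.9 FPKM in shCON and 60.5, 73.2 and 75.1 FPKM in shPAX6 libraries. Every shPAX6 library lay above every shCON library, and the spread within each group was small beside the gap. The means were 25.2 ± 1.42 and 69.6 ± 7.94 FPKM (SD, n = 3), 2.75-fold higher in shPAX6 (log2 fold change 1.46 ± 0.14, SE). The log2 fold change was 1.33 after correction of each library for GC content, 1.38 after correction for transcript length and 1.20 after both, and 1.40 to 1.55 when each library was left out in turn. In that fit the gene was no longer past the threshold without any 1 of the 3 shCON libraries or without shPAX6 library 3.

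CYR61 (CCN1) and CTGF (CCN2) encode secreted matricellular proteins of the CCN family, which bind integrins and act on adhesion and matrix production. CYR61 (chromosome 1, 86046444 to 86049650) was at 299, 285 and 281 FPKM in shCON and at 387, 453 and 474 FPKM in shPAX6 libraries. The groups were apart, with means of 288 ± 9.52 and 438 ± 45.0 FPKM (SD, n = 3) and a log2 fold change of 0.60 ± 0.14 (SE). This log2 fold change was 0.41 after quantile normalization and 0.77 after median centring. CTGF (chromosome 6, 132269316 to 132272518) was at 27.6, 26.3 and 24.1 FPKM in shCON and at 27.3, 47.0 and 39.7 FPKM in shPAX6 libraries. Here shPAX6 library 1 fell among the controls while libraries 2 and 3 were above them, so the groups overlapped. The CTGF means were 26.0 ± 1.77 and 38.0 ± 9.96 FPKM (SD, n = 3), and the log2 fold change of 0.51 ± 0.21 (SE) became 0.73 without shPAX6 library 1. The order of the 3 targets by fold was ANKRD1, CYR61 and CTGF, but the last pair differed by less than their errors.

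AXL encodes a receptor tyrosine kinase for the ligand GAS6 and is a target gene of YAP (chromosome 19, 41725104 to 41767672). It was at 184, 173 and 202 FPKM in shCON and at 98.4, 175 and 134 FPKM in shPAX6 libraries, so that shPAX6 library 2 lay within the control range and the other two below it. The means of 186 ± 14.8 and 136 ± 38.2 FPKM (SD, n = 3) gave a log2 fold change of -0.49 ± 0.21 (SE), between -0.69 and -0.28 with each library left out. After length correction of the libraries the groups of AXL, and of AMOTL1, no longer overlapped, but they did overlap after GC correction and after both corrections. Thus the 4 genes grouped here as targets did not share a direction of their means. LATS2 and AMOTL2, targets grouped here with the regulators, had lower means in shPAX6 cells (log2 fold changes -0.38 and -0.36).

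**Figure D2:**
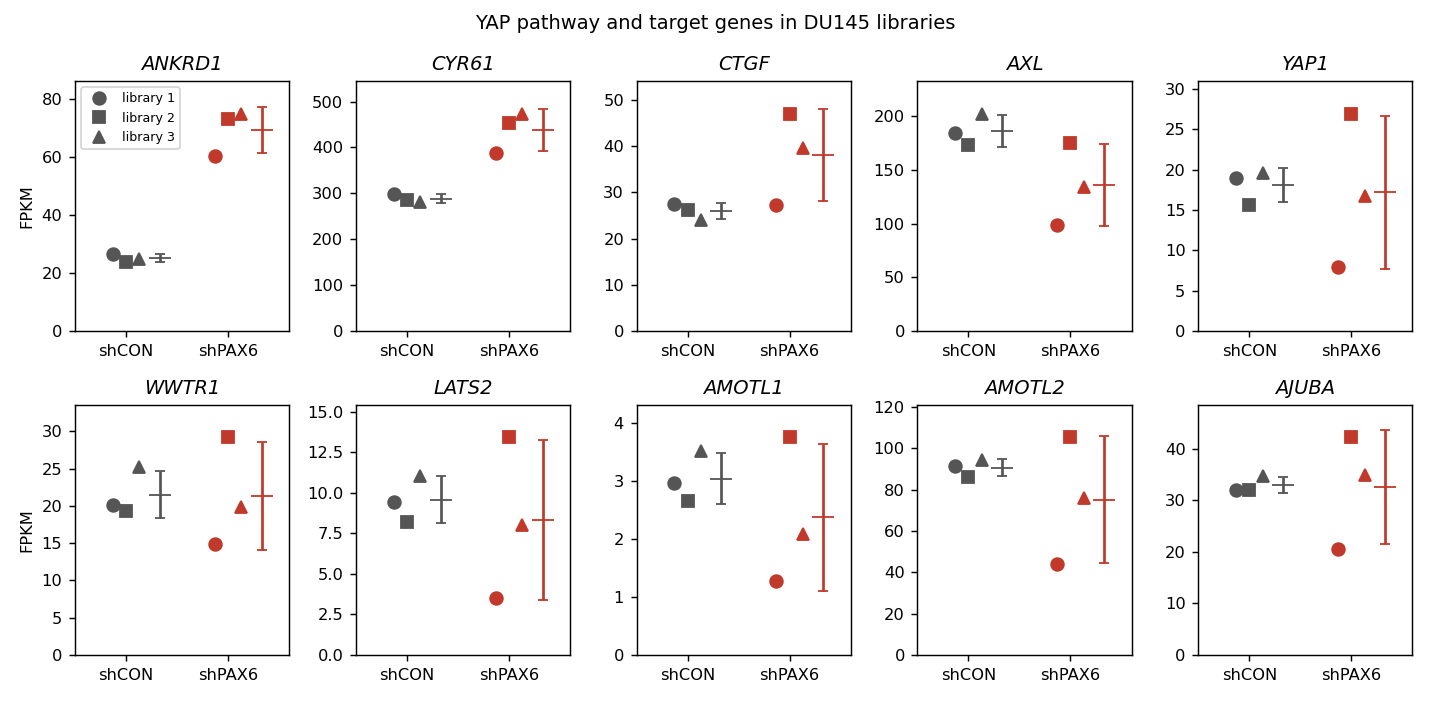
FPKM of the 10 members in each DU145 library (vertical axis, linear from 0; grey shCON, red shPAX6; circle, square and triangle for libraries 1, 2 and 3), with the group mean and SD beside the points. ANKRD1 and CYR61 are apart between the groups, while for the other genes shPAX6 library 1 is the lowest and library 2 the highest of the shPAX6 libraries.

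The coactivators showed no shift of the mean beyond the spread of the shPAX6 libraries. YAP1 (chromosome 11, 101981192 to 102104154) was at 19.0, 15.6 and 19.6 FPKM in shCON and at 7.98, 26.9 and 16.7 FPKM in shPAX6 libraries. One shPAX6 library was below, one above and one within the range of the controls. Its means were 18.1 ± 2.12 and 17.2 ± 9.49 FPKM (SD, n = 3), and the log2 fold change of -0.23 ± 0.40 (SE) turned to 0.24 without shPAX6 library 1 and was -0.64 without shPAX6 library 2. WWTR1 (chromosome 3, 149235022 to 149421060) was at 20.1, 19.3 and 25.2 FPKM in shCON and at 14.9, 29.2 and 19.9 FPKM in shPAX6 libraries. The same library order held, with means of 21.5 ± 3.20 and 21.3 ± 7.28 FPKM (SD, n = 3), and the log2 fold change of -0.06 ± 0.25 (SE) turned to 0.12 after rescaling.

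The regulators of YAP and TAZ shared this order of the shPAX6 libraries. LATS2, the kinase that phosphorylates YAP (chromosome 13, 21547175 to 21635722), was at 9.46, 8.20 and 11.1 FPKM in shCON and at 3.53, 13.4 and 8.04 FPKM in shPAX6 libraries. Library 1 of shPAX6 was well below all controls, library 3 was just below them and library 2 above all of them. The log2 fold change of -0.38 ± 0.44 (SE) ran from -0.82 to 0.13 with each library left out. AMOTL1 and AMOTL2 encode motins, junction proteins that bind YAP and hold it outside the nucleus. AMOTL1 (chromosome 11, 94501508 to 94609918) was at 2.97, 2.66 and 3.52 FPKM in shCON and at 1.27, 3.76 and 2.10 FPKM in shPAX6 libraries, a log2 fold change of -0.46 ± 0.37 (SE). AMOTL2 (chromosome 3, 134074187 to 134094259) was at 91.3, 86.1 and 94.4 FPKM in shCON and at 43.9, 105 and 75.9 FPKM in shPAX6 libraries, a log2 fold change of -0.36 ± 0.29 (SE). For both motins shPAX6 libraries 1 and 3 were below the controls and library 2 above them. AJUBA, a LIM protein that binds LATS kinases and limits their action on YAP (chromosome 14, 23440383 to 23451851), was at 32.1, 31.9 and 34.7 FPKM in shCON and at 20.6, 42.2 and 34.9 FPKM in shPAX6 libraries. Library 1 was below the controls, library 3 just above the highest of them and library 2 further above. The log2 fold change of -0.08 ± 0.25 (SE) became 0.10 after rescaling.

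For 8 of the 10 genes the ratio between shPAX6 libraries 2 and 1 exceeded the fold between the groups. All 10 were lowest in shPAX6 library 1, as were 57.9% of the 13574 tested features, and 8 were highest in shPAX6 library 2, as were 50.5%. The ratio of library 2 to library 1 was 3.80 for LATS2, 3.38 for YAP1, 2.95 for AMOTL1, 2.40 for AMOTL2, 2.05 for AJUBA, 1.96 for WWTR1, 1.77 for AXL and 1.72 for CTGF, but 1.21 for ANKRD1 and 1.17 for CYR61. The median log2 difference between both libraries was 1.00 for the members and 0.28 for all features. Both libraries also differed in their gradients over transcript length and GC content. Relative to the shCON mean, the values of shPAX6 library 1 decreased with transcript length over 12009 features (Spearman's rho -0.47 across features) and those of library 2 increased (0.42), whereas library 2 also decreased with GC content (-0.64). The longest transcripts of the 8 genes with the wide spread measure 2338 (CTGF) to 8980 bases (AMOTL1), compared with 1790 bases for ANKRD1 and 3080 for CYR61. After correction of each library for length the median difference of the members was 0.91, after correction for GC content 1.09 and after both 0.94. For ANKRD1 the log2 difference was 0.27 as deposited, 0.94 after length correction, -0.06 after GC correction and 0.45 after both. With length correction it rose from 0.78 to 1.19 for CTGF and from 0.225 to 0.35 for CYR61, and fell for the other members. PAX6 itself was at 0.0153 FPKM in shPAX6 library 1 and at 0.274 FPKM in library 2. The part of length, GC content and remaining PAX6 in the spread was not tested.

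Within DU145 control cells the order of levels per length, in FPKM, was CYR61 (288), AXL (186), AMOTL2 (90.6), AJUBA (32.9), CTGF (26.0), ANKRD1 (25.2), WWTR1 (21.5), YAP1 (18.1), LATS2 (9.57) and AMOTL1 (3.05). The ranges of the 3 shCON libraries overlapped for the neighbours CTGF and ANKRD1, ANKRD1 and WWTR1, and WWTR1 and YAP1, so their order is not settled. The other neighbours were apart in all shCON libraries. In the shPAX6 libraries ANKRD1 (mean 69.6 FPKM) stood above AJUBA (32.6) and CTGF (38.0), and beside AMOTL2 (75.0), with which its range overlapped.

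The rest of the pathway was read from 75 genes listed by role, of which 64 passed the filter of a mean of 0.5 FPKM. Of these 64 genes, 2 passed the limma test, TGM2 and WISP2, both lower in shPAX6 cells, which is 3.125% compared with 1.2% of all features (1.02% lower). The log2 fold change was above 0 for 25 genes and below 0 for 39, where 62.9% of all features were below 0. The genes above 0 include NOV, which reached the filter only through the shPAX6 group. The median was -0.09 beside -0.12 for all features (0.09 and 0.06 after median centring).

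In the kinase core and its activators, the proteins that switch on LATS kinases, 0 of 16 tested genes passed the limma test at the adjusted threshold, and 2 had an unadjusted p under 0.05 (18.3% of all features did). The median log2 fold change was -0.21 (-0.04 after median centring), with 5 genes above and 11 below 0. The scaffold WWC1 (KIBRA) had the lowest value, with 31.4, 28.8 and 31.6 FPKM in shCON and 9.62, 19.0 and 15.9 FPKM in shPAX6 libraries. Its groups were apart, with a log2 fold change of -1.09 ± 0.24 (SE) and an adjusted p of 0.081. The kinase TAOK2 followed with -1.002 (adjusted p = 0.062), and at the other end were FRMD6 with 0.73 (adjusted p = 0.41) and the LATS cofactor MOB1B with 0.24 (adjusted p = 0.75). FAT4 and DCHS1, the atypical cadherins upstream of the pathway, were below the filter.

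Of 14 junction, LIM and other regulators, 13 were tested, and 0 passed the limma test (0 also at an unadjusted p under 0.05). The median was -0.05 (0.12 after median centring). RASSF5, a partner of MST kinases, had a log2 fold change of -0.61 (adjusted p = 0.28), and LIMD1, a relative of AJUBA, -0.46 (adjusted p = 0.60). ZYX, the focal adhesion protein zyxin, stood at 0.37 (adjusted p = 0.33), and AMOT, the founding motin, at 0.39 (adjusted p = 0.65).

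Of the tested TEAD factors, which bind DNA with YAP, and cofactors, 6 of 6 had a log2 fold change below 0 as deposited and 3 of 6 under every scaling. Their median was -0.30 (-0.12 after median centring), and 0 passed the limma test (2 at an unadjusted p under 0.05, as did 18.3% of all features). TEAD3 was at 8.38, 8.82 and 8.64 FPKM in shCON and at 5.28, 5.00 and 5.83 FPKM in shPAX6 libraries. The groups were apart, with a log2 fold change of -0.67 ± 0.15 (SE) and an adjusted p of 0.081. TEAD2 was similar at -0.60 (adjusted p = 0.088). TEAD1 instead repeated the library order of YAP1, at 14.5, 10.8 and 16.2 FPKM in shCON and 5.78, 30.2 and 13.3 FPKM in shPAX6 libraries, with a log2 fold change of -0.04 (adjusted p = 0.98) that turned to 0.14 after rescaling. VGLL1, VGLL2 and VGLL3, cofactors that compete for TEAD, were below the filter.

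Among 23 tested further target genes, 14 had a log2 fold change above 0 and 9 below, and the median was 0.18, compared with -0.12 for all features. This median was 0.47 after quantile normalization, 0.35 after median centring, 0.10 after GC correction and 0.03 without shPAX6 library 2. The groups did not overlap for 7 genes on the higher side (6.7% of all features) and 2 on the lower side (20% of all features), and 8 had an unadjusted p under 0.05, compared with 18.3% of all features. Only TGM2 passed the test, in the lower direction. TGM2, transglutaminase 2, a protein-crosslinking enzyme, was at 269.5, 263 and 302 FPKM in shCON and at 83.8, 144 and 131 FPKM in shPAX6 libraries, which did not overlap. Its log2 fold change was -1.25 ± 0.21 (SE) with an adjusted p of 0.044, and the adjusted p ranged from 0.005 to 0.298 over 18 alternatives. It was above the threshold in 11 of them, among them no filter (0.073), no intensity trend (0.058), GC correction (0.082), quantile normalization, median centring, and leaving out any 1 of the shCON libraries or shPAX6 library 3.

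The largest values on the higher side belonged to CCND1, the cell cycle regulator cyclin D1, and TGFB2, a TGF-beta ligand. CCND1 was at 80.04, 74.5 and 85.4 FPKM in shCON and at 107, 162 and 132 FPKM in shPAX6 libraries. The groups were apart, and its log2 fold change of 0.72 ± 0.17 (SE) did not pass the test (adjusted p = 0.092). TGFB2 stood at 0.65 (adjusted p = 0.31) and its groups overlapped. On the lower side, ARHGEF17, a RhoGEF, had -0.62 (adjusted p = 0.35). FOXF2 and INHBA were below the filter.

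Of the CCN relatives of CYR61 and CTGF, 1 passed the test. WISP2 (CCN5), the CCN protein that lacks the C-terminal domain, was at 10.9, 11.8 and 11.7 FPKM in shCON and at 5.24, 4.27 and 4.45 FPKM in shPAX6 libraries. It fell by 1.29 ± 0.16 (SE) on the log2 scale with an adjusted p of 0.020, which ranged from 0.003 to 0.218 over 18 alternatives and was above the threshold in 8 of them, among them quantile normalization, median centring, and leaving out any 1 of the shCON libraries or shPAX6 library 3. NOV (CCN3) was at 0.356, 0.354 and 0.355 FPKM in shCON and at 1.09, 0.957 and 1.16 FPKM in shPAX6 libraries, a low level that reached the filter only through the shPAX6 group, so its difference is not given as a tested one. WISP1 and WISP3 were below the filter. ANKRD2, a relative of ANKRD1, stood at -0.96 (adjusted p = 0.10), opposite in sign to ANKRD1, and the third relative, ANKRD23, was below the filter. Of the 10 relatives past the filter, 5 were above 0, with NOV counted among them, and 5 below 0.

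**Figure D3:**
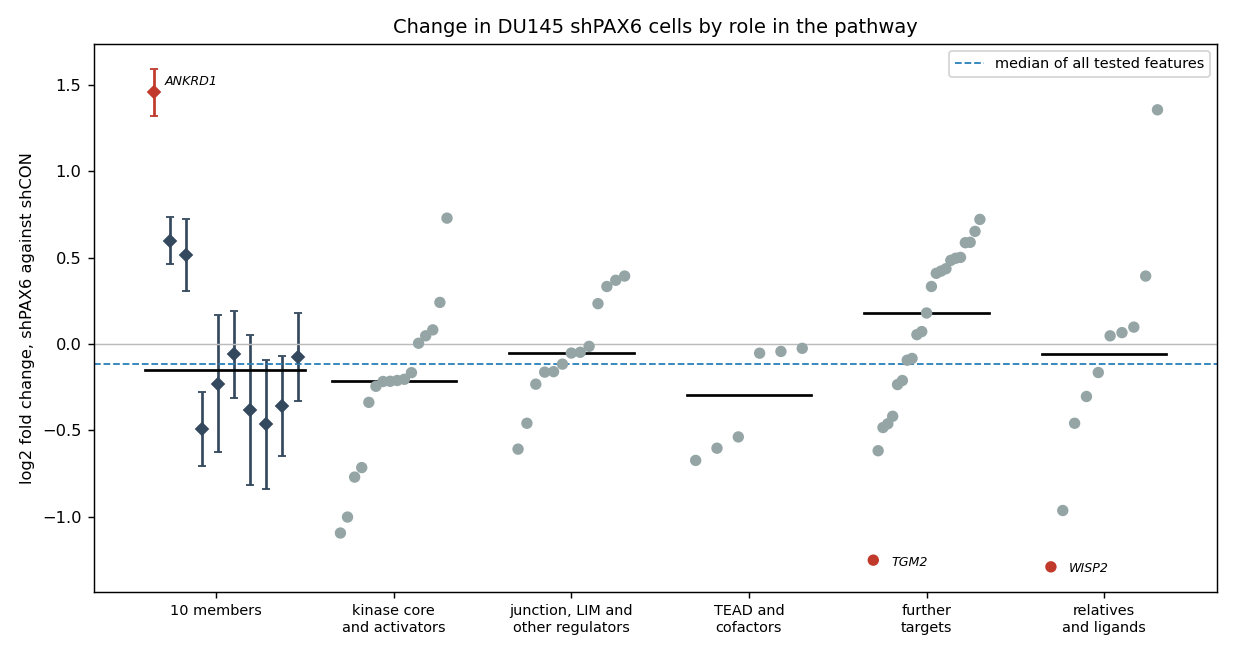
Log2 fold change between shPAX6 and shCON cells on the log2(FPKM + 0.1) scale (vertical axis) for the 10 members (diamonds with SE, in the order ANKRD1, CYR61, CTGF, AXL, YAP1, WWTR1, LATS2, AMOTL1, AMOTL2 and AJUBA) and for each gene of the pathway lists (circles), with the median of each group (black bar) and of all tested features (dashed, -0.12). Red marks genes past the limma threshold, which are ANKRD1 above 0 and TGM2 and WISP2 below 0.

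In LNCaP cells 1 library stood on each side, so no test was possible. The study's methods speak of replicates for each cell line, and the labels do not say whether a library pools several cultures. The libraries held 20468001 (parental) and 17945722 (LNCaP-ENZ) counts, and ratios are of CPM, counts scaled by the library total, with exact 95% intervals (Clopper-Pearson) that cover counting error only. All 6 luminal markers were above 1 TPM in the parental library, and their summed counts were 66494 and 54985. The epithelial markers had 18774 and 13511 counts, the fibroblast markers 456 and 231 (with COL1A2, COL3A1, DCN, LUM and PDGFRA at 0) and the endothelial markers 348 and 30. Of the last, VWF took 345 and 27 counts, with PECAM1 at 3 in each library and CDH5 at 0. The median log2 ratio over the 14767 genes with a mean of at least 1 CPM was -0.15 and moved to -0.01 with TMM factors. Of those genes 11.4% differed at least 2-fold, 1.84% higher and 9.57% lower in LNCaP-ENZ cells.

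The targets that were abundant in DU145 were scarce in both LNCaP libraries. ANKRD1 had 0 counts in each library, for which the limit is 3 counts, and CTGF had 2 counts in each, so no ratio is given for either gene. CYR61 was counted 154 times in the parental and 111 times in the LNCaP-ENZ library, which gave a log2 ratio of -0.28 with an interval from -0.65 to 0.08. AXL had 31 and 23 counts, with an interval from -1.09 to 0.58. The intervals of CYR61 and AXL included 0, so a difference was not detectable at this depth.

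YAP1 itself was well covered in LNCaP, with 3038 (parental) and 2142 (LNCaP-ENZ) counts. This gave a log2 ratio of -0.31 (interval -0.39 to -0.23), which lay between -0.40 and -0.16 over the alternatives, the latter with the median ratio of all genes set to 0. WWTR1 had only 18 and 5 counts, with a log2 ratio of -1.37 and a wide interval from -3.44 to -0.18, and the ratio ran from -1.62 to -0.56 over the alternatives.

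LATS2 was the only member with a mean of at least 1 CPM that passed 2-fold. It had 461 (parental) and 158 (LNCaP-ENZ) counts and was 2.54-fold lower by CPM, at a log2 ratio of -1.35 (interval -1.63 to -1.09, and -1.39 to -1.19 over the alternatives). AMOTL1 had 65 and 33 counts, a log2 ratio of -0.76 (interval -1.44 to -0.16). AMOTL2 had 15 and 13 counts, and AJUBA 773 and 684 counts with a log2 ratio of 0.01 (interval -0.14 to 0.16), and for both the sign of the ratio depended on the scaling. Thus 1 of the 6 members with at least 1 CPM was past 2-fold, lower, where 9.57% of all genes were, and 1 of the 6 ratios was above 0. The median of the 6 was -0.30 (-0.15 with TMM factors).

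**Figure D4:**
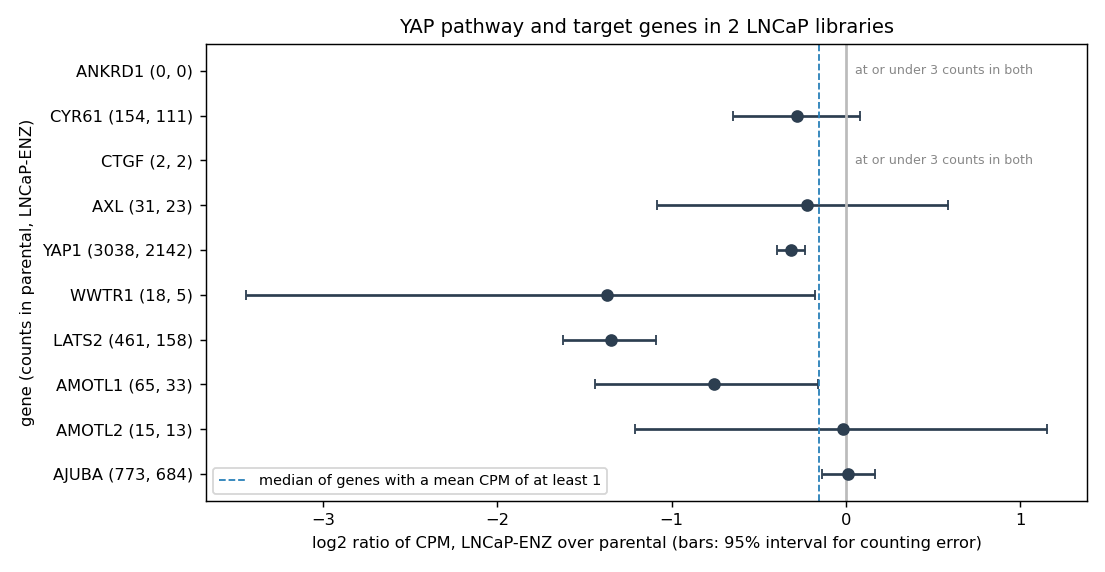
Log2 ratio of CPM between the LNCaP-ENZ and the parental library (horizontal axis) for each member, with bars for the exact 95% interval of counting error and the counts of both libraries in parentheses. LATS2 and YAP1 lie below 0 with narrow intervals, and ANKRD1 and CTGF have too few counts for a ratio.

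Of the 75 other pathway genes 56 had a mean of at least 1 CPM in LNCaP, of which 2 were at least 2-fold higher and 5 at least 2-fold lower in LNCaP-ENZ cells, where 1.84% and 9.57% of all genes were. In the kinase core 2 of 17 genes passed 2-fold, both lower, FRMD6 (109 and 38 counts, log2 ratio -1.29) and MOB1B (948 and 411 counts, log2 ratio -1.01). The highest ratios in the core were 0.61 for DCHS1 and 0.36 for TAOK2, and the median was -0.54 (-0.40 with TMM factors). LATS1 had a log2 ratio of -0.54, less negative than LATS2. Among 13 regulators, the phosphatase PTPN14 (539 and 216 counts, log2 ratio -1.12) and the tight junction protein TJP1 (3462 and 1458 counts, log2 ratio -1.06) were past 2-fold, and the highest ratio was 0.09, for LIMD1. Under the alternatives MOB1B, PTPN14 and TJP1 came within 2-fold, to -0.86, -0.97 and -0.90 at the closest. In the core, STK3 (log2 ratio -0.96) and TAOK1 (-0.97) passed 2-fold under an alternative, each at -1.04.

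Of the 6 TEAD factors and cofactors measured, 0 passed 2-fold by library total, and RUNX1 did so with TMM factors and with the median ratio of all genes set to 0 (log2 ratio up to 1.08). The ratios by library total were 0.92 for RUNX1, a DNA-binding partner of YAP (46 and 78 counts), 0.43 for VGLL4, an inhibitor of TEAD, -0.56 for TEAD1 and -0.15 for TEAD2, the last within its counting error. Of 16 further targets 4 passed 2-fold, 2 in each direction, compared with 11.4% of all genes in either direction (1.84% higher, 9.57% lower). IGFBP3, which binds insulin-like growth factors, went from 157 counts in the parental to 4596 in the LNCaP-ENZ library, 32.97-fold by CPM (log2 ratio 5.04, interval 4.83 to 5.30). CCDC80, a matrix protein, went from 62 to 159 counts (log2 ratio 1.52, interval 1.12 to 2.00). THBS1, thrombospondin, went the other way from 34 to 10 counts (log2 ratio -1.42, interval -2.76 to -0.53, and -0.77 with a pseudocount of 1 CPM), as did PTPN14, which is also a target. Over the alternatives FJX1 (179 and 286 counts, log2 ratio 0.86) also passed 2-fold (up to 1.01), and THBS1 and PTPN14 came within it. The median of the target list was -0.05, compared with -0.15 for all genes (0.10 and -0.01 with TMM factors). Among 8 relatives none passed 2-fold, and PROS1, a ligand of the AXL family, had a log2 ratio of -0.71 with an interval that included 0 (-1.68 to 0.09). ANKRD23 had the highest ratio of the relatives, 0.13 (interval -0.35 to 0.61).

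Because the DU145 and LNCaP tables were made separately, levels in the 2 lines were only set side by side, as FPKM rescaled to TPM in DU145 and as TPM in LNCaP, with the percentile of each gene among the 18808 symbols found in both tables. In LNCaP a single small nuclear RNA, RN7SK, which has no poly(A) tail, took 38.8% and 38.5% of the TPM. This share lowers the TPM of every other gene there but by itself does not change their order. Whether RNA was selected alike in both lines is uncertain, and ranks may depend on it. YAP1 was the member with the closest levels, at 38.0 ± 5.04 TPM in the shCON libraries (SD, n = 3) compared with 27.2 in parental and 20.6 TPM in LNCaP-ENZ cells. Its percentile was 77.4 to 79.9 in shCON and 70.8 to 84.9 over all 6 DU145 libraries, compared with 89.2 and 86.7 in LNCaP. YAP1 was thereby the only member that ranked higher in LNCaP than in every DU145 library.

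The other 9 members ranked lower in both LNCaP libraries than in any DU145 library. CYR61 was at 605 ± 23.9 TPM in shCON and at 3.42 and 2.65 TPM in LNCaP, and its percentile was 98.8 to 99.4 in DU145 compared with 55.2 and 56.1. AXL was at 391 ± 36.8 TPM in shCON compared with 0.323 and 0.257 TPM, and AMOTL2 at 190 ± 11.8 TPM compared with 0.146 and 0.136 TPM. The coactivator WWTR1 differed in the same way, with 45.3 ± 7.30 TPM in shCON compared with 0.171 and 0.0511 TPM, so that of the pair of coactivators YAP1 alone was well expressed in LNCaP. ANKRD1 was at 52.9 ± 3.59 TPM in shCON and listed at 0 in LNCaP. The members with the smaller gaps in rank were LATS2 (percentile 67.6 to 71.4 in shCON, 58.6 and 49.6 in LNCaP), AJUBA (86.5 to 87.3, and 69.0 and 71.5) and AMOTL1 (52.1 to 54.1, and 35.8 and 34.2).

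**Figure D5:**
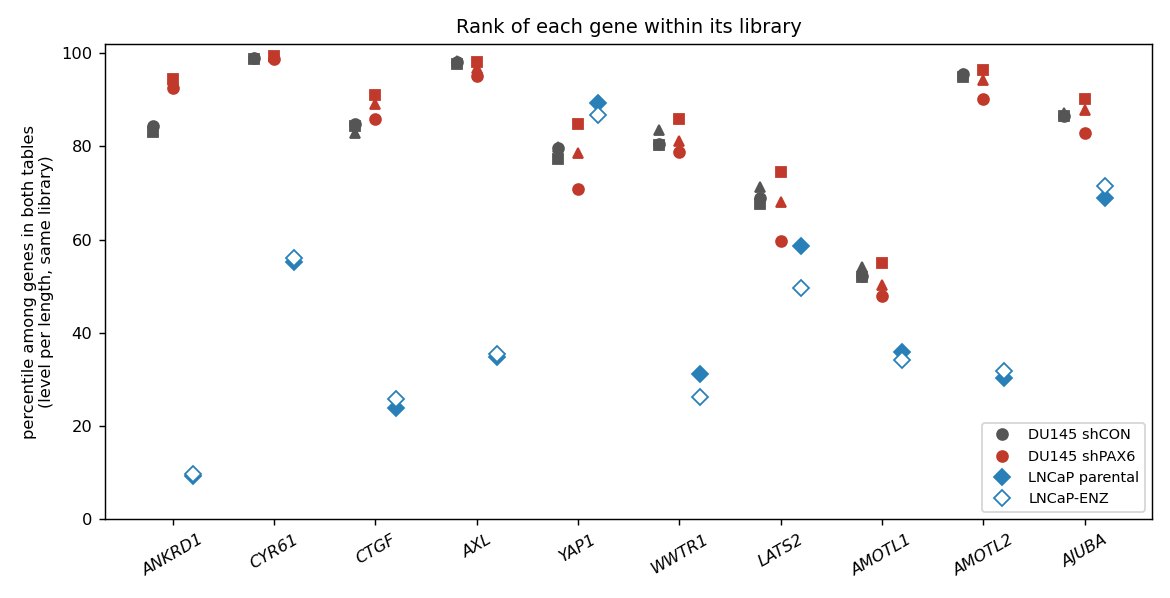
Percentile of each member among the 18808 shared symbols of the same library (vertical axis) in the DU145 shCON (grey), DU145 shPAX6 (red), LNCaP parental (filled diamond) and LNCaP-ENZ (open diamond) libraries. YAP1 is the gene whose LNCaP diamonds lie above all DU145 points, and ANKRD1, listed at 0 in LNCaP, takes the mean rank of all genes at 0 there.

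Some of the loci carry other transcripts. CTGF, AMOTL1, LATS2 and WWTR1 overlap annotated RNAs on the opposite strand (LINC01013, PIWIL4-AS1, LATS2-AS1 and WWTR1-AS1), YAP1 and AXL overlap opposite-strand RNAs without a gene name, and the sources used here do not state that counting used strand, so reads of such pairs may not be told apart. AMOTL2 holds a ribosomal protein pseudogene (RPL39P5) on its own strand, and AJUBA overlaps another protein-coding annotation.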

How the data were processed

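RNA sequencing of 8 samples was used, 3 DU145 shCON, 3 DU145 shPAX6, 1 LNCaP parental and 1 LNCaP-ENZ. The 6 ATAC-seq samples were not used here. The study's methods give oligo-dT priming, alignment to GRCh37 with HISAT2 and quantification with StringTie, whereas the labels describe other library kits and another read length for poly(A) RNA, so the preparation of these libraries is uncertain. The LNCaP table holds the authors' raw gene counts and TPM. For DU145 the deposited values name no unit and were taken as FPKM computed by the authors (765 low features showed no shared step, with at most 1.569% of ratios in 1 bin), so no count test was run.

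DU145 values were tested with limma 3.58.1 (R 4.3.3; intensity trend, two-sided) on log2(FPKM + 0.1), which understates changes of low genes, keeping features whose mean reached 0.5 FPKM, and p-values were adjusted over all of them (Benjamini-Hochberg, threshold 0.05). LNCaP counts were divided by the library total, and log2 ratios used a pseudocount of 0.1 CPM. GC content and length came from the longest transcript of the annotation lifted to GRCh37, known for 88.5% of tested features, and corrections were loess fits (span 0.5, degree 2). Code was tested on simulated data. The members, the lists by role and the markers were chosen with earlier results of these data known. The summed leukocyte markers are not reported here. Named were all members, the 2 largest changes in each direction per list and any gene past the threshold. Alternatives were pseudocounts, filters, scalings (edgeR 4.0.16 for TMM), a replicate block, GC and length corrections (those for length, and the block with GC correction, chosen after seeing the data) and leaving out each library.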

Additional observations from a re-analysis of the deposited data

How the results depend on the processing

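In DU145, 163 features were called as reported, compared with 108 with no filter, 100 after median centring, 697 after length correction, 268 after GC and length correction and 0 to 920 with each library left out (0, 5 and 0 without shCON 1, 2 and 3, and 920, 903 and 10 without shPAX6 1, 2 and 3). The labels do not say whether same-numbered libraries were paired. Their deviations had correlations of -0.17, -0.37 and 0.05. With gradients that differ between the shPAX6 libraries, these values cannot decide it. With the replicate block 0 features, 0 members and 0 pathway genes were called (limma; 1568 features at an unadjusted p under 0.05, compared with 2480 without the block), and with the replicate block and GC correction 5, 0 and 0. Of the members, 1 was called as reported, 2 after length correction and 2 after GC and length correction (ANKRD1 and CYR61), and 0 to 3 with each library left out. Without shPAX6 1 these were ANKRD1, CYR61 and CTGF, and without shPAX6 2 they were ANKRD1, CYR61 and AXL. The median of the members, -0.15, ran from -0.47 to 0.20 with each library left out, the latter without shPAX6 1. Of the pathway lists, 2 genes were called as reported, 1 with no filter, 8 after length correction and 5 after both corrections. With each library left out 0 to 15 were called (15 without shPAX6 1). Beside these counts, 697 of 12009 features were called after length correction and 268 of 12009 after both. Without shPAX6 1 and 2 it was 920 and 903 of 13574 features. The members were chosen with this contrast known, so nothing is read from their counts. The log2 fold change of PAX6, not given as a tested one, was -0.97 with a pseudocount of 1 and -2.69 without the intensity trend. It was -2.85 after GC, -2.66 after length and -2.75 after both corrections, and ran from -3.16 to -2.31 with each library left out. In LNCaP the counts past 2-fold stayed within 1.5 times of those reported, for members and for pathway genes. Depth is unknown in DU145, and in LNCaP it limits ANKRD1, CTGF, WWTR1 and AMOTL2.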
